A study of Mus musculus with 10 samples.

Results

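Among the 1340 mature miRNAs measured by small RNA sequencing in the RPE/choroid/sclera, the coat of the mouse eye behind the neural retina, 3 have been named in earlier work on eye growth: mmu-miR-328-3p, mmu-miR-103-3p and mmu-miR-107-3p, written here without the mouse prefix. They were picked out by name, and all 3 were found in the table. All tissue came from C57BL/6J wild-type animals aged 34 days after birth (P34). From P24 a goggle had held a -20D lens before one eye for 10 days, while the fellow eye went without. The 10 libraries came from 5 left and 5 right eyes with the numbers 61, 64, 65, 66 and 68, each number shared by a left and a right eye. The labels do not say which eye wore the lens, so the comparison that could be made is right against left eye, in which an effect of the lens is diluted or lost if the treated side differed between animals. They also do not say whether a number stands for an animal, and no group of animals without a lens was analysed here. One protocol speaks of retinae, and the tissue was taken here as labelled.

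A miRNA is a short RNA that guides a silencing complex to messenger RNAs, chiefly through its seed, bases 2 to 8 counted from the 5′ end. It is cut from one arm of a hairpin, and the other arm, the passenger, is mostly degraded. In human genetics miR-328 has been reported to lower PAX6, the master regulator of eye development, and has for that reason been named in myopia, in which the eye grows too long and the sclera thins. miR-103 and miR-107 are encoded in introns of the pantothenate kinase genes, whose products begin the synthesis of coenzyme A. They are known from work on lipid and insulin metabolism and on Dicer, the enzyme that frees miRNAs from their hairpins, and were listed in work on scleral growth.

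The sequences show why miR-103-3p and miR-107-3p have to be read as a pair. In the RefSeq mature sequences (GRCm38.p6) below, capitals mark the seed.
miR-103-3p: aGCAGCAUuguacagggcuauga
miR-107-3p: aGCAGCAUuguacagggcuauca
Both are 23 bases long and share the seed GCAGCAU. They differ by 1 substitution, G22C, with miR-103-3p as the reference and positions counted from the 5′ end, so a read that ends within the first 21 bases fits both. The sources used here do not say how such reads were counted. Of the 1135 table miRNAs with a RefSeq mature sequence, no other has this seed.

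Mature miR-103-3p comes from a pair of hairpins and miR-107-3p from a single one. In these hairpins, again from RefSeq, capitals mark the mature 5p and 3p arms.
Mir103-1: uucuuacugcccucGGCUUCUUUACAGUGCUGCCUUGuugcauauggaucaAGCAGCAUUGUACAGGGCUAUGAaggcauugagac
Mir103-2: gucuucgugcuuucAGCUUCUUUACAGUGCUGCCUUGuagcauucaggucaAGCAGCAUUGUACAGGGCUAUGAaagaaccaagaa
Mir107: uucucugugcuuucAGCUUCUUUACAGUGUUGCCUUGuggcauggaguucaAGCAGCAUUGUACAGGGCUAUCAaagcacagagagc
Mir103-1 lies on the plus strand of chromosome 11 (35782396 to 35782481, build GRCm38), Mir103-2 on the plus strand of chromosome 2 (131288052 to 131288137) and Mir107 on the minus strand of chromosome 19 (34820687 to 34820773). In GENCODE M21 they sit in introns of Pank3, Pank2 and Pank1, each on the strand of its host gene and outside every annotated host exon. The table holds miR-103-3p in 1 row, at the Mir103-2 position (chromosome 2, 131288103 to 131288125), and since the mature sequence is the same from both hairpins, the value cannot be assigned to either. miR-328-3p lies on the minus strand of chromosome 8 (105308379 to 105308400), within an intron of Elmo3, which is on the plus strand, so it is antisense to that gene and 39 bases from its nearest exon.

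The signal of each library summed to between 11878152 and 11879036 units, and the depth of sequencing is unknown because the values are normalised and reads could not be recovered. All listed markers of the tissue and of its neighbours were measured. The pigment epithelium markers miR-204-5p and miR-211-5p together held 1959 to 1989 k (k, kilo-units of signal). This narrow range does not show an even pigment epithelium content, since miR-204-5p had the same top signal, 1931810, in every library. Only miR-211-5p, at 27249 to 57345, varied in the sum. The 5 retina and neuron markers summed to 263 to 473 k in left and 189 to 1330 k in right eyes, and the highest value belonged to the right eye of number 68, where the other 9 libraries reached at most 473 k. Fibroblast and smooth muscle markers gave 836 to 1060 k, endothelial 198 to 342 k, surface epithelium 25.3 to 245 k, striated muscle 24.4 to 96.2 k, leukocyte 9.61 to 15.6 k and erythroid 1.30 to 2.92 k. In bulk tissue, fewer cells of a type and less RNA per cell cannot be told apart.

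The most abundant of the 3 was miR-103-3p, with a mean signal of 25771 ± 2419 (SD, n = 10), 0.217% of the summed signal. In left eyes its signal was 25150 in number 61, 26150 in 64, 26150 in 65, 28901 in 66 and 22482 in 68, and in right eyes it was 26150, 28901, 27249, 25150 and 21427 in the same order. Both eyes of number 68 lay below all other libraries, and the ranges of left and right eyes overlapped nearly in full. The highest library exceeded the lowest by 1.35-fold.

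miR-328-3p followed at 12113 ± 1762, 0.102% of the signal. Left eyes had 12667 in number 61, 12667 in 64, 13992 in 65, 10090 in 66 and 10090 in 68, and right eyes had 12667, 14903, 12667, 11952 and 9430. The lowest values were those of both eyes of number 68 and of the left eye of number 66, the highest was the right eye of number 64, and left and right eyes overlapped. Highest and lowest library differed by 1.58-fold.

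miR-107-3p was far lower, at 940 ± 163, 0.00791% of the signal. Its left eye signals were 886 in number 61, 1037 in 64, 1108 in 65, 1092 in 66 and 919 in 68, and its right eye signals were 1009, 1025, 872, 904 and 544. The right eye of number 68 stood alone at the bottom, and the other 9 libraries lay between 872 and 1108. That eye also had the lowest value of miR-103-3p and of miR-328-3p. It was the lowest library for 119 of the 588 miRNAs with a mean signal of at least 10 (20.2%), a count made after the values were seen. Without both eyes of number 68 the mean of miR-107-3p was 992 ± 92.8 (n = 8), and that of miR-103-3p was 26725 ± 1498, that of miR-328-3p 12701 ± 1409.

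**Figure D1:**
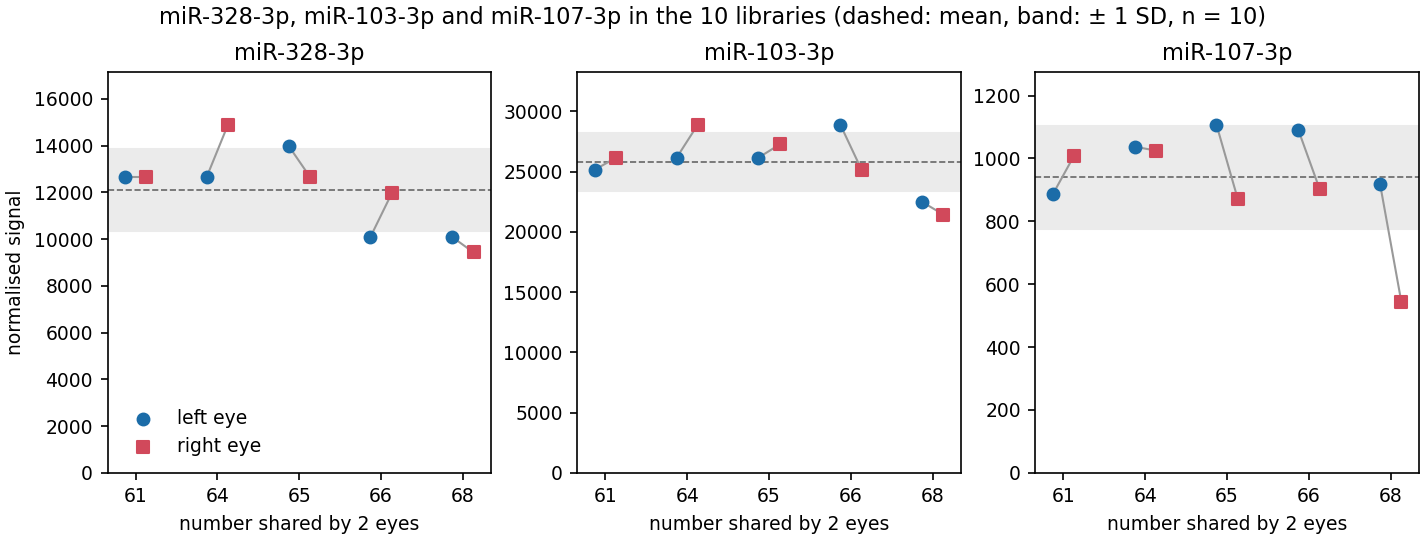
Normalised signal (linear axes from 0) of miR-328-3p, miR-103-3p and miR-107-3p by number, with left eyes as circles, right eyes as squares and grey lines joining the eyes of a number; the dashed line is the mean and the band 1 SD over 10 libraries. The eyes of number 68 are lowest for miR-103-3p, at 22482 and 21427, and the right eye of number 68 is lowest for miR-107-3p, at 544.

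The order of the levels, miR-103-3p above miR-328-3p above miR-107-3p, was the same in all 10 libraries, and no ranges of neighbours in that order met: the lowest miR-103-3p signal, 21427, was above the highest miR-328-3p signal, 14903, and the lowest miR-328-3p signal, 9430, above the highest miR-107-3p signal, 1108. Mature miRNAs are close in length, so no length correction was made. Small RNA libraries favour some sequences over others in adapter ligation, and the order is of measured signal.

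These values are bound to ranks. Within each library miR-103-3p ranked 47th to 53rd, miR-328-3p 62nd to 74th and miR-107-3p 156th to 201st. Between ranks 47 and 53, and between ranks 62 and 74, every rank had the same signal in all 10 libraries, a span of 0% of its mean, and between ranks 156 and 201 the largest span was 1.41%. A shift of 1 rank therefore moved the signal by a fixed step, with a median of 4.86% for miR-103-3p, 3.82% for miR-328-3p and 1.5% for miR-107-3p. Thus miR-328-3p had 12667, the step at rank 68, in both eyes of number 61, the left eye of 64 and the right eye of 65, and miR-103-3p took 6 distinct values in 10 libraries. A change too small to pass a neighbouring miRNA leaves no trace in such values.

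**Figure D2:**
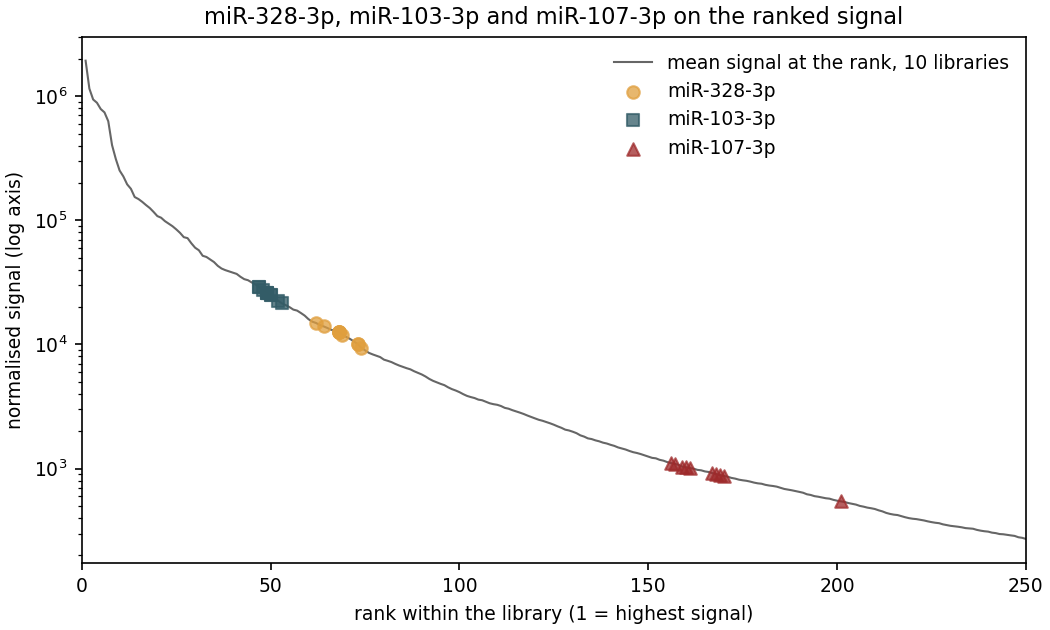
Normalised signal (log axis) against rank within the library up to rank 250; the line is the mean signal at each rank over 10 libraries, and each point is one library's value of miR-328-3p (circles), miR-103-3p (squares) or miR-107-3p (triangles). All points lie on the shared curve, miR-103-3p between ranks 47 and 53 and miR-107-3p between ranks 156 and 201, with the right eye of number 68 at rank 201.

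The spread over libraries differed among the 3. The SD of log2(signal + 1) was 0.14 for miR-103-3p, 0.22 for miR-328-3p and 0.30 for miR-107-3p, beside a median of 0.34 over the 588 miRNAs whose mean signal was at least 10. Only 38 of the 588 had a smaller SD than miR-103-3p, against 136 for miR-328-3p and 233 for miR-107-3p. Among the 40 miRNAs within 20 ranks of its mean level, 6 had a smaller SD than miR-103-3p. For miR-328-3p 19 of 40 such neighbours had a smaller SD, and for miR-107-3p 27 of 40. Thus miR-103-3p varied little for its level, while miR-328-3p lay in the middle of miRNAs of like abundance. The SD of miR-107-3p was above the median of its neighbours, 0.21. Its right eye of number 68 lay 0.76 below its mean log2 value, and all other libraries lay within 0.26 of it. The steps of the ranks enter these SDs.

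All 3 were measured almost wholly as the 3p arm. The passenger miR-103-2-5p had a mean signal of 3.43 ± 1.42 (SD, n = 10) and miR-107-5p of 4.10 ± 2.77, while miR-328-5p was listed at 0 in 4 of 10 libraries and reached at most 2. The 3p arm held 99.99% of the summed arms for miR-103-2 and 99.57% for miR-107, the share for miR-103-2 being too high in so far as its 3p row includes the product of Mir103-1. None of these passengers reached a mean signal of 10, so none entered a test. Of 158 hairpins with both arms at that level, 68 had more signal in the 3p arm, and 0.0% of them passed an adjusted p of 0.05 for a right against left difference in arm ratio (limma, Benjamini-Hochberg).

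Right and left eyes were compared by limma on log2(signal + 1) over the 588 miRNAs, with the number as a block and Benjamini-Hochberg adjustment. No member passed. The background is that 0 of 588 (0.0%) passed the adjusted threshold of 0.05, and 13 (2.21%) had an unadjusted p under 0.05, none of them miR-328-3p, miR-103-3p or miR-107-3p. For miR-103-3p the log2 difference, right minus left, was -0.002 (SE 0.07, adjusted p = 0.992 in limma), with 3 of 5 right eyes higher. Its 95% interval ran from 1.13-fold lower to 1.12-fold higher in the right eye.

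For miR-328-3p the log2 difference was 0.05 (SE 0.08, adjusted p = 0.967 in limma), with a 95% interval from 1.11-fold lower to 1.19-fold higher. Among its pairs 2 right eyes were higher, 2 were lower and 1 was tied. The signal averaged 11901 ± 1740 on the left and 12324 ± 1962 on the right (SD, n = 5 per side), a gap inside the spread of either side. Since the interval is of normalised values held on rank steps, it bounds the difference in those values.

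miR-107-3p had the largest difference of the 3, with 1008 ± 101 on the left, 871 ± 194 on the right (SD, n = 5 per side) and a log2 difference of -0.24 (SE 0.14, adjusted p = 0.967 in limma). It was lower in 4 of 5 right eyes, and the 95% interval ran from 1.49-fold lower to 1.07-fold higher. Number 68 carried much of it: without that number the difference was -0.11, and without number 61, whose right eye was higher, it was -0.35. Leaving out the right eye of number 68 alone had to give the same -0.11, since an eye without its pair adds nothing to the paired difference. In the right eye of number 68 the retina and neuron markers stood at 1330 k, and their part in the low miR-107-3p value was not tested. None of the 3 moved one way in all 5 pairs, as 17 of the 588 (2.89%) did. The groups overlapped for all 3 miRNAs, where 1 of the 588 miRNAs (0.17%) had groups that did not overlap.

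The balance within the pair was then compared, since both members share a seed. The signal of miR-103-3p exceeded that of miR-107-3p 28.4-fold in the left and 25.9-fold in the right eye of number 61, 25.2 and 28.2-fold in 64, 23.6 and 31.2-fold in 65, 26.5 and 27.8-fold in 66, and 24.5 and 39.4-fold in 68. The ratio was higher in 4 of 5 right eyes, with a mean of 25.6 ± 1.87 in left and 30.5 ± 5.31 in right eyes. The log2 ratio differed by 0.24 between sides, which did not pass the exact two-sided sign-flip permutation test (p = 0.188), in which 5 pairs allow no p under 0.0625. Without the right eye of number 68 the 9 remaining ratios lay between 23.6 and 31.2. In every library miR-107-3p made up 2.48% to 4.06% of the signal of the pair.

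**Figure D3:**
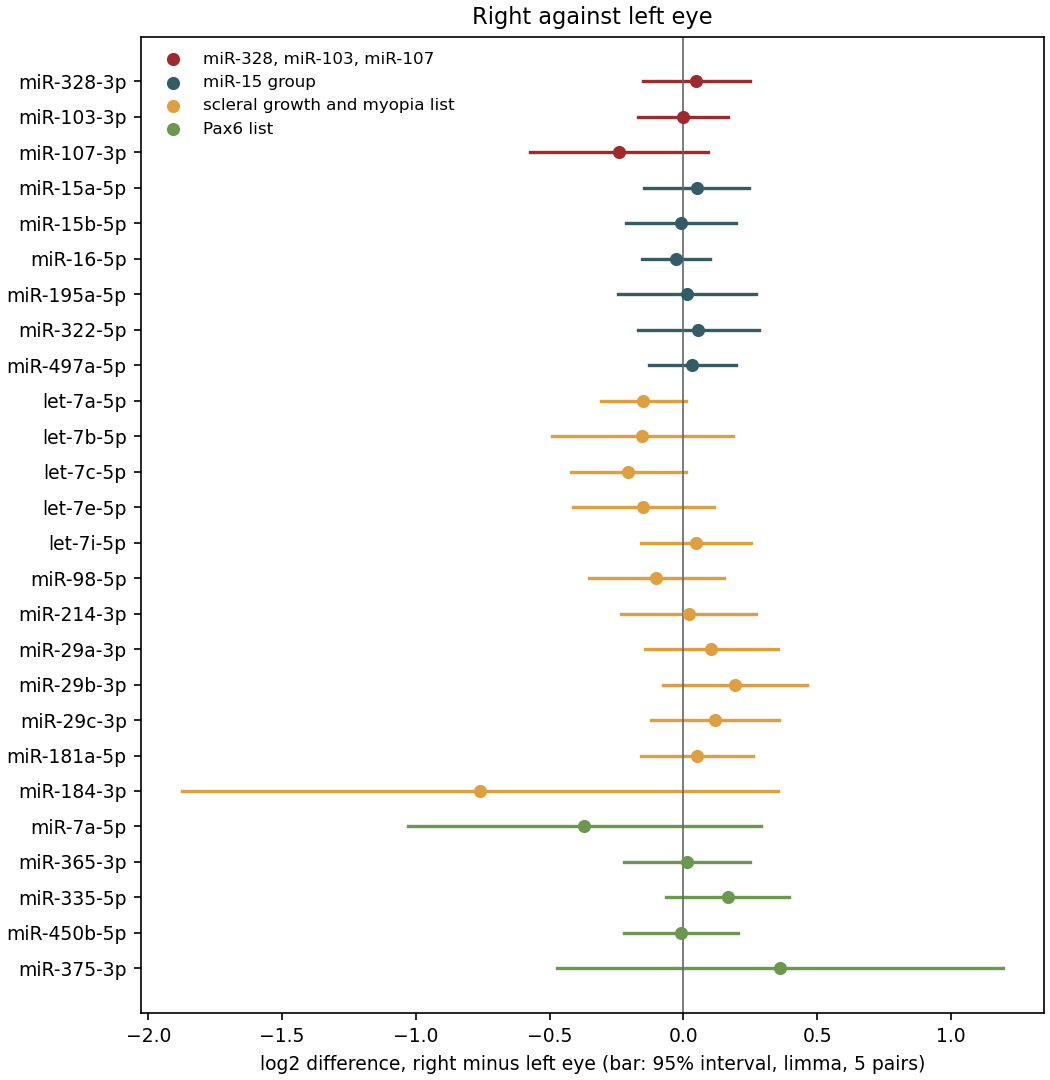
Log2 difference of right minus left eye with its 95% interval (limma, 5 pairs) for miR-328-3p, miR-103-3p and miR-107-3p and for the other miRNAs of the lists described in the text; miR-204-5p, which has a single value in all libraries, is left out. All 26 intervals cross 0, and miR-107-3p at -0.24 lies lowest of the first 3.

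Whether the 5 numbers differ was tested in the same model by limma's moderated F test of the number, over all 588 miRNAs. Here 7 of 588 (1.19%) passed an adjusted p of 0.05 and 137 (23.3%) had an unadjusted p under 0.05. miR-328-3p, miR-103-3p and miR-107-3p were not among the 7. The means of the numbers spanned 0.49 on the log2 scale for miR-328-3p (adjusted p = 0.187 in limma, unadjusted 0.0350), 0.32 for miR-103-3p (adjusted p = 0.329) and 0.54 for miR-107-3p (adjusted p = 0.410), beside a median span of 0.67 over all 588. Number 68 had the lowest and number 64 the highest mean for each of the 3. Marker sums differed between single eyes, also within a number. The right eye of number 68 had the highest retina and neuron sum, 1330 k, against 263 k in its left eye. That left eye had the highest fibroblast and smooth muscle (1060 k), striated muscle (96.2 k) and leukocyte (15.6 k) sums. The right eye had 843 k, 47.1 k and 12.7 k of these. For surface epithelium, number 68 had marker sums of 63.8 k (left) and 59.9 k (right), against 245 k and 205 k in number 64. Within number 66 the epithelium sums were 200 k (left) and 25.3 k (right). The part of these in the order of the numbers was not tested.

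For miR-328-3p the 2 eyes averaged 13785 in number 64, 13330 in 65, 12667 in 61, 11021 in 66 and 9760 in 68. The largest gap between the eyes of one number was 0.24 on the log2 scale, in number 66, smaller than the span of the means. For miR-103-3p number 68 averaged 21954 and the others 25650 to 27525, with a largest gap within a number of 0.20. For miR-107-3p the gap of 0.75 between the eyes of number 68 was larger than the span of the numbers, 0.54. Having the eyes of number 68 as the 2 lowest values was true of 69 of the 588 miRNAs (11.7%), miR-103-3p among them. This count was made after the values were seen and leaves out miR-328-3p, whose left eyes of numbers 66 and 68 tied at 10090.

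Without number 68 the span fell to 0.10 for miR-103-3p (adjusted p = 0.915 in limma), to 0.13 for miR-107-3p (0.945) and to 0.32 for miR-328-3p (0.476). Some fall was fixed in advance, since number 68 had the lowest mean of each. The count of 7 moved with the numbers included: it was 0 without number 61, 64 or 68 or without the right eye of number 68, 1 without 65 and 22 without 66. A number may stand for an animal, a litter, a dissection or a library batch, which cannot be told apart.

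The related miR-15 group was listed for comparison. In 7 of its table miRNAs the bases AGCAGCA, which start at base 1 in miR-103-3p and miR-107-3p, start at base 2 and so are the seed. The group acts on cyclins and other cell cycle genes, and on Bcl2. The RefSeq sequences of its more abundant members, with the seed in capitals, are shown for comparison with the pair above.
miR-16-5p: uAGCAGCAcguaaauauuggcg
miR-497a-5p: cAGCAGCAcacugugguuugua
miR-322-5p: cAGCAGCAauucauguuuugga
miR-195a-5p: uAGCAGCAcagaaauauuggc
miR-15a-5p: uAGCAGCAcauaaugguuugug
miR-15b-5p: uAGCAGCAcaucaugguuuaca
After the seed these sequences differ from those of the pair.

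Of the 9 miRNAs listed for this group, 6 reached a mean signal of 10. miR-497b, whose RefSeq seed is ACCACAG and so not that of the group, was not found in the table. miR-16-5p led with 73105 ± 2254 (SD, n = 10), above miR-103-3p, followed by miR-497a-5p at 4880 ± 181, miR-322-5p at 3932 ± 416, miR-195a-5p at 2613 ± 299.6, miR-15a-5p at 2244 ± 325 and miR-15b-5p at 807 ± 57.6. Thus miR-107-3p, at 940, stood beside miR-15b-5p at the low end of this order, and their ranges (544 to 1108, and 716 to 886) overlapped. The 7 table miRNAs with AGCAGCA as their seed had a summed mean signal of 87581, against 26710 for miR-103-3p and miR-107-3p together. miR-503-5p, whose seed is AGCAGCG, had 4.48 ± 3.91, and miR-195b was listed at 0 in 7 of 10 libraries.

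Between sides, none of the 6 kept miRNAs of the group passed. Their log2 differences, right minus left, were 0.06 for miR-322-5p, 0.05 for miR-15a-5p, 0.03 for miR-497a-5p, 0.01 for miR-195a-5p, -0.01 for miR-15b-5p and -0.03 for miR-16-5p, with 4 above 0 and a median of 0.02, equal to the median of 0.02 over all 588. Among numbers none passed, and the median span of their means was 0.25, beside 0.67 over all 588. The value of miR-16-5p moved over 3 steps only, from 71843 to 79250.

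Of 14 miRNAs from work on scleral growth and myopia, all kept, none passed between sides (6 above 0, median -0.01). The list repeats miR-16-5p of the miR-15 group. It also holds miR-204-5p, which had 1931810 in every library and so could not pass. Among numbers 4 of the 14 passed: let-7c-5p, let-7b-5p and let-7e-5p of the let-7 family, which restrains growth genes, and miR-29c-3p, which targets collagen messenger RNAs. This is 28.6% of the list beside 1.19% of all 588, in a list chosen with earlier results of these data known. The let-7 calls are of the same family, so this share need not count separate results. The let-7 calls had their lowest mean in number 68: 128815 for let-7c-5p, 6180 for let-7b-5p and 3041 for let-7e-5p. In contrast, miR-29c-3p had its highest mean there, at 10841. The means of let-7c-5p spanned 1.65 on the log2 scale (adjusted p = 0.0177 in limma), beside 0.49 for miR-328-3p. All 4 calls were lost without number 61, 64 or 68, without the right eye of number 68 and in limma without a trend, and without number 65 let-7c-5p alone of the 4 passed. miR-98-5p and miR-214-3p, listed beside miR-103 and miR-107 in the scleral work and named after their values were seen, spanned 1.02 (adjusted p = 0.0727 in limma) and 0.34 (adjusted p = 0.461). The other 3 called miRNAs, named after their values were seen, were miR-30b-5p, miR-30c-5p and miR-664-5p.

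Of 6 other miRNAs reported to act on Pax6, 5 were kept and miR-7b-5p was not found in the table. None passed between sides (3 above 0, median 0.01) or among numbers, and their levels are given after the values were seen. miR-328-3p, at 12113, had the highest mean signal among these repressors: miR-335-5p stood at 2943 ± 521, miR-365-3p at 725 ± 114, miR-375-3p at 655 ± 456, miR-450b-5p at 279 ± 45.1 and miR-7a-5p at 22.4 ± 8.51 (SD, n = 10). No range of these reached that of miR-328-3p, since the highest, that of miR-335-5p, ended at 3454. Pax6 itself was not measured in small RNA.

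**Figure D4:**
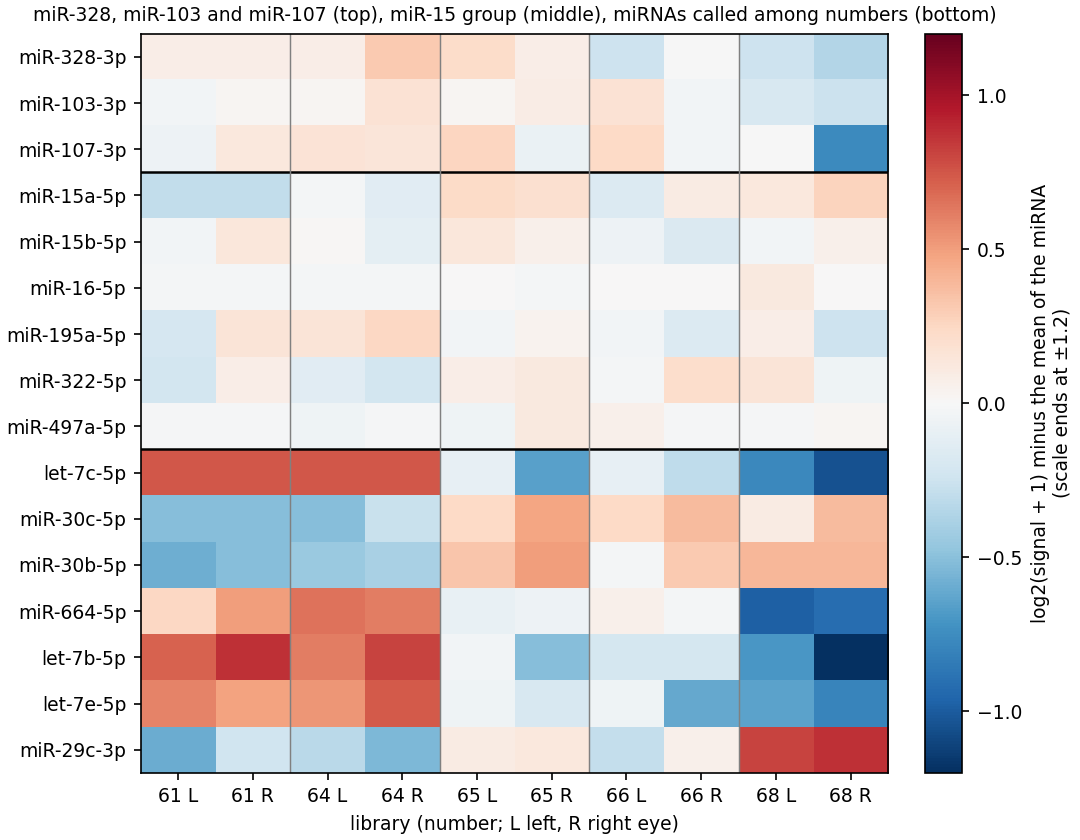
Log2(signal + 1) minus the miRNA's own mean, by library (numbers 61 to 68, L for left and R for right eye), for miR-328-3p, miR-103-3p and miR-107-3p (top), the kept miR-15 group (middle) and the 7 miRNAs that passed among numbers (bottom); the colour scale ends at 1.2 in either direction. The first 3 stay within 0.76 of their mean, with the lowest value for miR-107-3p in the right eye of number 68, while values of the bottom group reach 1.35.

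The miRNAs with the most similar pattern were sought by Pearson correlation of log2(signal + 1) across the 10 libraries among the 586 other kept miRNAs whose values vary. These libraries share numbers and a normalisation, so r is given as a description. miR-328-3p was most like miR-24-3p (r = 0.93, Spearman rho = 0.88, 10 libraries), miR-504-5p (r = 0.90, rho = 0.76) and miR-1843b-5p (r = 0.88, rho = 0.86). It was least like miR-6390 (r = -0.93, rho = -0.85), miR-148b-3p (r = -0.86, rho = -0.84) and miR-434-3p (r = -0.84, rho = -0.84). Without number 68 the r with miR-24-3p was 0.86 and that with miR-6390 -0.88 over 8 libraries. It was then 0.77 with miR-504-5p, 0.77 with miR-1843b-5p, -0.73 with miR-148b-3p and -0.69 with miR-434-3p.

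miR-103-3p was most like miR-130a-3p (r = 0.96, rho = 0.97), with which r was 0.94 without number 68, miR-330-3p (r = 0.94, rho = 0.92) and miR-195a-3p (r = 0.88, rho = 0.80). It was least like miR-136-3p (r = -0.89, rho = -0.78), miR-127-5p (r = -0.86, rho = -0.84) and miR-136-5p (r = -0.84, rho = -0.71). These fell in size without number 68, to -0.56, -0.64 and -0.51. The r with miR-330-3p was then 0.91 and that with miR-195a-3p 0.62.

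For miR-107-3p the highest values were with miR-17-3p (r = 0.91, rho = 0.72), miR-27b-3p (r = 0.91, rho = 0.52) and miR-224-5p (r = 0.86, rho = 0.81), and its lowest with miR-323-3p (r = -0.87, rho = -0.57), miR-487b-3p (r = -0.86, rho = -0.30) and miR-872-5p (r = -0.85, rho = -0.45). Without number 68 miR-27b-3p had a single value in all 8 libraries, 628392. The left eye of number 68 had that value too, and its right eye had 403594. The r with miR-487b-3p and miR-872-5p came to -0.15 and -0.19 without number 68, so these rested on that number. Both miRNAs were highest in its right eye, at 479 and 4256, against 258 and 3768 in its left eye. Without number 68 the r was -0.55 with miR-323-3p, 0.77 with miR-17-3p and 0.70 with miR-224-5p.

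Among themselves, miR-103-3p and miR-107-3p correlated at r = 0.75 (rho = 0.56), miR-328-3p and miR-103-3p at r = 0.61 (rho = 0.55), and miR-328-3p and miR-107-3p at r = 0.57 (rho = 0.41), over 10 libraries. Without number 68 the first fell to 0.44 and the others to -0.08 and -0.002 over 8 libraries, so the likeness of miR-328-3p to the pair rested on that number.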

How the data were processed

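Small RNA libraries were made with the TruSeq kit from the RPE/choroid/sclera of 5 left and 5 right eyes, per the labels' protocols. The authors used Bowtie and Partek with GRCm38 (mm10), per the submitters' processing notes, without versions, and deposited a normalised signal for 1340 mature miRNAs. The sources used here do not give the normalisation method. Only 7.31% of signals above 0 are whole within 0.001, so count models were not used. Tests used log2(signal + 1) of the 588 miRNAs with a mean signal of at least 10 (99.988% of the signal), which understates changes of low miRNAs.

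limma 3.58.1 (R 4.3.3) was run with a mean-variance trend and two-sided tests at an adjusted 0.05, and was tested on simulated data. The replicates carry no statement of separate animals, so p-values measure the spread between these libraries. The stop positions of the table lie 1 past the RefSeq end in 1133 of 1133 rows matched by start, and ends were corrected by 1. By rule, the named miRNAs are the 3 miRNAs, their passenger arms, the miR-15 group, list members that passed, and for each miRNA the 3 most and the 3 least alike. miR-98-5p, miR-214-3p, the other miRNAs reported to act on Pax6, miR-195b, miR-30b-5p, miR-30c-5p and miR-664-5p were named outside it, after their values were seen. The miRNAs and lists were chosen with earlier results of these data known. Other filters, pseudocounts, fits without the block or the trend, and fits without each number were tried.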

Additional observations from a re-analysis of the deposited data

Results flagged for a closer look

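In 4 of 30 checks, over the 3 miRNAs, their passenger arms, the miR-15 group and the ratio of the pair on each side, a single eye stood well apart from the rest of its side in log2(signal + 1). About 1 check in 20 does so by chance for independent values, and these values sit on shared rank steps. Among the 4, miR-103-2-5p and miR-195b had mean signals of 3.43 and 0.53, below the filter of 10. The count of 4 therefore cannot be read as an excess over that rate. miR-107-3p had 544 in the right eye of number 68, where the other right eyes had 872 to 1025, and the retina and neuron markers were at 1330 k in that library, whose part was not tested. miR-103-2-5p had 0.233 in the right eye of number 61, beside 2.75 to 4.70. miR-16-5p had 79250 in the left eye of number 68, beside 71843 to 73146. miR-195b had 1.10 in the right eye of number 61 and was listed at 0 in the other right eyes.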

How the results depend on the processing

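No miRNA passed between sides under any of the 11 other settings. Without the replicate block the log2 differences were 0.05 for miR-328-3p, -0.002 for miR-103-3p and -0.24 for miR-107-3p, as in the paired fit, and the ratio of the pair had p = 0.0556 by an exact two-sided permutation of 5 against 5 libraries. The paired structure rests on the shared number alone: deviations of same-numbered eyes correlated at 0.12, 0.45, 0.01, -0.13 and 0.28, and 2 of 5 left eyes were most like their own number. The count among numbers was 23 with a mean signal of at least 100, 0 without the trend, 0 without the right eye of number 68 (an alternative chosen after seeing the data) and 0 to 22 with a number left out. The count of arm ratios ran from 0 to 1. With a number left out the log2 difference between sides ran from -0.0016 to 0.095 for miR-328-3p, -0.039 to 0.048 for miR-103-3p (0.01 without the right eye of number 68), -0.0024 to 0.090 for miR-15a-5p, -0.055 to 0.023 for miR-15b-5p, -0.073 to 0.099 for miR-195a-5p, -0.0064 to 0.12 for miR-322-5p and -0.0013 to 0.061 for miR-497a-5p. The cause was not tested. In all, 262 of 291 recomputed values kept direction and call or stayed within their spread. Depth is unknown and sets no limit that can be stated here, while the rank steps limit what can be seen in abundant miRNAs.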

Other observations

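The passenger arms miR-103-2-5p and miR-107-5p, which differ by 1 substitution (C16U, miR-103-2-5p as the reference, counted from the 5′ end), had the same signal in 8 of 10 libraries, between 2.45 and 4.70. In these libraries between 0 and 50 other miRNAs held that value too. The exceptions were the right eye of number 61, with 0.233 for miR-103-2-5p and 11.1 for miR-107-5p, and the right eye of number 64, with 4.70 and 0.551. The mature 3p arms of the same hairpins lay at least 23.6-fold apart in every library, so they could not share a value and give no contrast.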
